A study of Homo sapiens with 24 samples.

Results

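NR2F1 and NR2F2 encode the orphan nuclear receptors COUP-TFI and COUP-TFII, and NR2F1-AS1 and NR2F2-AS1 are the long noncoding transcripts read from the opposite strand at each gene. Their counts were examined in 24 bulk RNA-seq libraries of cardiac cells derived from human embryonic stem cells. The 4 genes were taken by symbol from a table of 62757 rows, and all 4 passed the filter that left 17724 genes for testing. Every library came from 1 line, HES3 with reporters NKX2-5GFP and NR2F2mCherry, so all groups carry a fluorescent reporter at NR2F2 itself. The labels do not say whether 1 or both NR2F2 alleles are tagged. Cells were differentiated as embryoid bodies with a Wnt-modulating protocol for at most 14 days. The AM groups are taken here as the atrial condition, which received retinoic acid at day 4, and the VM groups as the ventricular condition without it, since the labels do not spell out the abbreviations. In each condition CRISPR-Cas9 was directed at LHX2, ZNF503 or ZNF711, which encode regulators of transcription, or at TRAC, the T cell receptor alpha constant gene, as the control. Each of the 8 groups held 3 libraries. The labels do not say whether the cells were sorted, whether the libraries are separate differentiations, or whether each targeted line is a clone, so p-values measure only the spread between these libraries.

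COUP-TF receptors bind DNA as homodimers or with RXR partners at repeats of a nuclear receptor half-site, and they act mainly as repressors. In the developing heart NR2F2 is enriched in atrial over ventricular myocardium, where it favours atrial and restrains ventricular gene programmes, and retinoic acid raises both genes in cultured cardiac progenitors. NR2F2 also specifies venous identity in endothelium and is present in many mesenchymal cells, so a bulk measurement can draw on several cell types.

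In GENCODE 29 on GRCh38, NR2F1 lies at chr5:93583224-93594615 on the plus strand and NR2F1-AS1 at chr5:93409359-93585648 on the minus strand. The pair overlap over 2425 bp, of which 158 bp are exonic on both strands, or 3.7% of the exonic length of NR2F1. NR2F2 lies at chr15:96325938-96340263 on the plus strand and NR2F2-AS1 at chr15:96110040-96327361 on the minus strand. That pair overlap over 1424 bp with 0 bp exonic on both. Whether counting used strand is not given in the sources used here, so reads from the shared stretches cannot be assigned to 1 partner. The 3 stretches below are the 250 bases upstream of a RefSeq start (GRCh38.p14) of NR2F1 and of each antisense transcript. They are shown because sense and antisense start close together and were high in the same libraries. Capitals mark AGTTCA or its reverse complement, a nuclear receptor half-site variant that was searched only after the sequences had been seen.
NR2F1 chr5:93582972-93583221 (+): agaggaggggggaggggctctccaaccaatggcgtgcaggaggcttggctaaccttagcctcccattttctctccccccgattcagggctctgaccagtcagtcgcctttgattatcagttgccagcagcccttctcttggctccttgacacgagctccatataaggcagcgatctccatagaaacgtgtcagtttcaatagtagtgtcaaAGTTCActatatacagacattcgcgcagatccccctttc
NR2F1-AS1 chr5:93585590-93585839 (-): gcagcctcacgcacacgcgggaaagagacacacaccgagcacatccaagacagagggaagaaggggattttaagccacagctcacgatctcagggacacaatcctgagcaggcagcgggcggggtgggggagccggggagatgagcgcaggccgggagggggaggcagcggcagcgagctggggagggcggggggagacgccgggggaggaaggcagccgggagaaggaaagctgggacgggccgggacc
NR2F2-AS1 chr15:96327119-96327368 (-): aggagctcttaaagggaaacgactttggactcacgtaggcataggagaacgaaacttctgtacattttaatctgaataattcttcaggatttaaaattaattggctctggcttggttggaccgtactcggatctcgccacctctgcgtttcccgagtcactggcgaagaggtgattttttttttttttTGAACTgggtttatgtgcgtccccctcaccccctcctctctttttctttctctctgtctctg
RefSeq held 11 promoter entries for the 4 genes, each of 300 bases. The half-site AGGTCA, on either strand, was in 0 of the 11 and in 13.8% of all 35116 entries. Direct repeats of it with 1, 2 or 5 bases between were likewise in 0 of the 11, and in 0.0228%, 0.00285% and 0.0057% of all entries. AGTTCA was in 5 of the 11 and in 10.4% of all entries, and TATAAA in 1 of the 11 and in 11.5%. AGTTCA was picked from these same sequences and each gene has several entries, so its 2 shares are no measure of enrichment. The AGTTCA match of NR2F2 is in an entry that overlaps its coding sequence. A missing match says only that these letters are not in the window, and the stretches above are 52.4% (NR2F1), 68.4% (NR2F1-AS1) and 44.4% (NR2F2-AS1) G or C. NR2F2's own entries lie in its coding or untranslated sequence and are not shown.

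Total counts were 2899786 to 7438010 per library. Values are CPM, counts divided by library size, with library sizes scaled by the trimmed mean of M values, and 3 counts, the limit that a count of 0 allows, equal 0.447 to 0.963 CPM. Such limits cover counting error only. A gene was called below an adjusted p of 0.05. RNA of the targeted genes was not called lower than in the TRAC libraries in either condition. LHX2 held 2 to 11 counts in AM and 2 to 14 in VM libraries targeted at it, against 3 to 13 and 9 to 27 in TRAC. At such counts a fall could hardly be seen. ZNF711 differed by log2 values of -0.34 in AM and -0.37 in VM, not called. ZNF503 was at 255 to 367 CPM in AM libraries targeted at ZNF503 against 103 to 123 CPM in AM TRAC (adjusted p = 0.295, edgeR). RNA level therefore does not check the labels. The 10 cardiomyocyte markers together held 12076 to 42880 CPM in every library. The replicate 3 libraries of VM TRAC, VM LHX2 and VM ZNF503 stood apart from replicates 1 and 2 of those groups. In them 13.4% of tested genes lay above all 6 of the other libraries, and results that rest on them are given with and without them below.

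NR2F2 was high in every AM library. It was at 411, 455 and 514 CPM in AM TRAC replicates 1, 2 and 3, at 320, 361 and 322 CPM in AM LHX2, at 385, 373 and 441 CPM in AM ZNF503, and at 383, 474 and 459 CPM in AM ZNF711. In VM TRAC it was at 18.9, 22.7 and 49.2 CPM, in VM LHX2 at 20.5, 18.9 and 37.8 CPM, and in VM ZNF503 at 26.0, 21.7 and 43.0 CPM. VM ZNF711 held 78.1, 76.4 and 85.9 CPM. No AM library overlapped any VM library, the VM ZNF711 libraries lay above the other 9 VM libraries, and replicate 3 was the highest of its group in all 4 VM groups. NR2F2 was thus counted in every VM library, with 89 to 411 counts, and was never near the limit that a count of 0 allows.

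NR2F1 was also high in AM, but in 6 of the 12 VM libraries it was at or below the limit of 3 counts. It was at 149, 207 and 167 CPM in AM TRAC, at 171, 188 and 114 CPM in AM LHX2, at 195, 202 and 157 CPM in AM ZNF503, and at 127, 156 and 129 CPM in AM ZNF711. In VM TRAC the counts were 1, 0 and 29, in VM LHX2 3, 0 and 13, and in VM ZNF503 2, 1 and 32. Replicates 1 and 2 of those 3 groups therefore held 7 counts of NR2F1 in all, at or below the limit of 3 counts in each library, whereas their replicate 3 libraries reached 2.60 to 6.88 CPM. VM ZNF711 had 53, 102 and 43 counts, or 13.1, 19.2 and 8.99 CPM, above every other VM library. The gap between the lowest AM and the highest VM library was wider than for NR2F2 on the log scale.

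The antisense transcripts followed the same division at lower levels. NR2F2-AS1 was at 55.5, 56.0 and 65.6 CPM in AM TRAC, 71.0, 76.5 and 54.6 CPM in AM LHX2, 53.0, 38.1 and 52.7 CPM in AM ZNF503, and 58.7, 50.7 and 46.3 CPM in AM ZNF711. In the VM TRAC, VM LHX2 and VM ZNF503 libraries it held 4 to 12 counts, or 0.745 to 2.46 CPM, and in VM ZNF711 37, 26 and 23 counts, or 9.15, 4.89 and 4.81 CPM. NR2F1-AS1 ranged from 12.9 to 26.1 CPM over the 12 AM libraries, with a median of 20.4 CPM. It ranged from 0.235 to 2.06 CPM over the 9 VM libraries outside ZNF711, where it had 1 to 13 counts, and was at 4.95, 4.70 and 3.34 CPM in VM ZNF711. For both transcripts all 12 AM libraries lay above all 12 VM libraries and all VM ZNF711 libraries above the other 9.

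**Figure D1:**
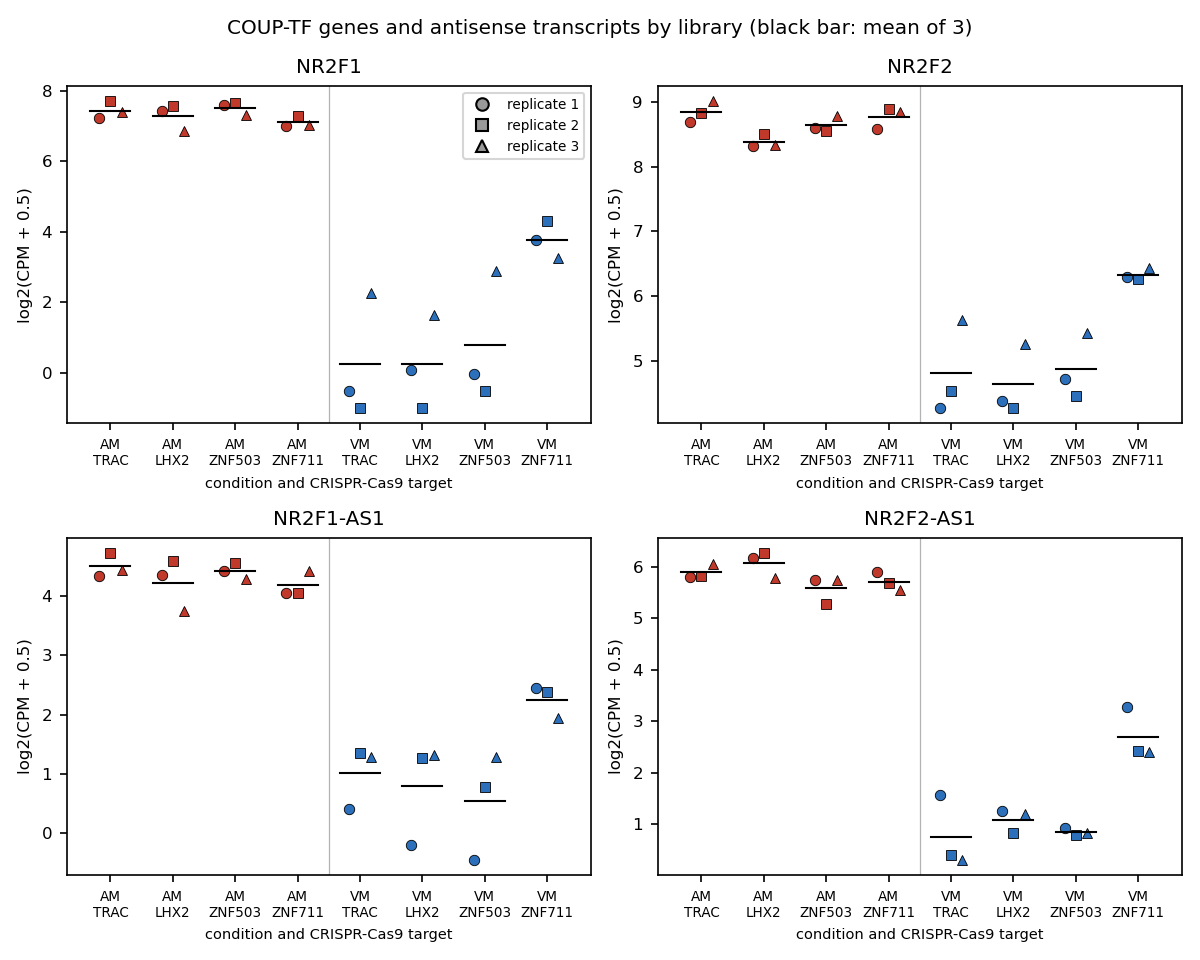
Level of NR2F1, NR2F2, NR2F1-AS1 and NR2F2-AS1 as log2(CPM + 0.5) on the y axis (each panel has its own range) in the 8 groups on the x axis, with 1 point per library shaped by replicate number, AM in red and VM in blue, and a bar at the mean of 3. All AM points lie above all VM points in every panel, VM ZNF711 lies above the other VM groups, and replicate 3 is the highest point of the other VM groups for NR2F1 and NR2F2.

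The question of the first comparison was how far the 4 genes differ between the conditions in each target. All 4 rose in AM over VM in all 4 targets by edgeR's quasi-likelihood test. The background of genes called higher in AM was 6.18% for TRAC, 4.68% for LHX2, 4.77% for ZNF503, 6.81% for ZNF711 and 16.8% for the mean of the 4 targets. In the TRAC libraries NR2F2 was higher by 3.91 on the log2 scale (SE 0.31, adjusted p = 1.17e-08, edgeR), and NR2F2-AS1 by 5.48 (SE 0.32, adjusted p = 1.53e-11, edgeR). NR2F1 was higher by 6.62 (SE 0.76, adjusted p = 1.38e-05, edgeR) and NR2F1-AS1 by 3.76 (SE 0.43, adjusted p = 1.02e-06, edgeR). For LHX2 the log2 differences were 7.18 for NR2F1, 3.70 for NR2F2, 3.71 for NR2F1-AS1 and 5.32 for NR2F2-AS1, and for ZNF503 they were 6.17, 3.72, 4.16 and 5.17 in the same order. For ZNF711 they were smaller, at 3.31 (SE 0.60) for NR2F1, 2.45 (SE 0.28) for NR2F2, 2.03 (SE 0.39) for NR2F1-AS1 and 3.06 (SE 0.27) for NR2F2-AS1. Averaged over targets, 12 libraries against 12, NR2F1 was higher by 5.82 (SE 0.37), NR2F2 by 3.45 (SE 0.15), NR2F1-AS1 by 3.41 (SE 0.22) and NR2F2-AS1 by 4.76 (SE 0.15), where the median over all tested genes was -0.01. Across all tested genes 2.69% had all 12 AM libraries above all 12 VM libraries, as these 4 genes did. The fitted difference of NR2F1 depends on the VM replicate 3 libraries: without VM TRAC replicate 3 it was 10.42 for TRAC, without VM LHX2 replicate 3 8.93 for LHX2 and without VM ZNF503 replicate 3 9.03 for ZNF503. In those fits the remaining VM libraries are at or below the limit of 3 counts, so these values are no estimate of a fold.

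**Figure D2:**
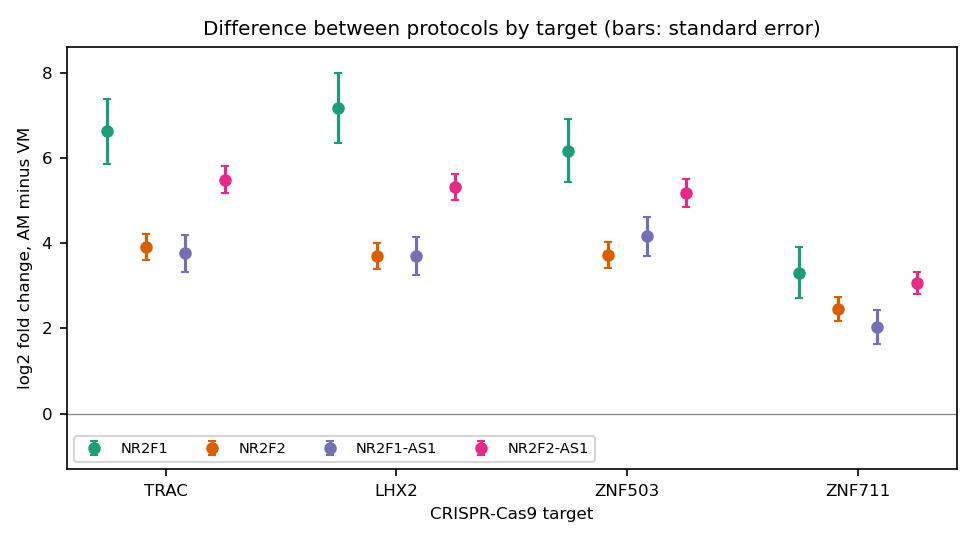
Log2 fold change of AM minus VM on the y axis for each CRISPR-Cas9 target on the x axis, with 1 coloured point per gene and bars of 1 standard error from the edgeR fit. All 16 points lie above 0, and each gene has its lowest point in ZNF711, between 2.03 and 3.31.

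Placed in order of group means, the 4 AM groups came first, VM ZNF711 next and the other 3 VM groups last for each of the 4 genes. The step from the lowest AM group to VM ZNF711 and the step from VM ZNF711 to the next VM group showed no overlap between libraries in any of the 4. Of all tested genes, 2.69% had all 12 AM libraries above all 12 VM libraries. For 1.69% all 3 VM ZNF711 libraries lay above the other 9 VM libraries. The share of genes with both was not counted. For NR2F2 the AM order was TRAC (460 ± 51.6 CPM, SD, n = 3), ZNF711 (439 ± 49.0), ZNF503 (399 ± 36.2) and LHX2 (334 ± 23.3). Neighbours in that order overlapped except ZNF503 and LHX2. For 2.31% of tested genes the AM LHX2 libraries lay below all 9 other AM libraries, as they did for NR2F2. For NR2F1 the AM order was ZNF503 (184 ± 24.1 CPM, SD, n = 3), TRAC (174 ± 29.9), LHX2 (158 ± 38.7) and ZNF711 (137 ± 16.0), and all neighbours overlapped, as did all neighbouring AM groups for the antisense transcripts. The VM TRAC, VM LHX2 and VM ZNF503 groups overlapped one another for every gene. Per kilobase of exon in GENCODE 29, the level over the 12 AM libraries was 49.6 to 79.5 CPM per kb for NR2F2, with a median of 61.6, and 26.5 to 48.0 for NR2F1, with a median of 37.6. On the same scale NR2F2-AS1 was at 6.28 to 12.6 and NR2F1-AS1 at 1.67 to 3.38 CPM per kb. These ranges did not overlap. The annotation release behind the counts is not given in the sources used here, so the lengths are approximate.

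Within the VM condition the receptors were higher in replicate 3 than in replicates 1 and 2 outside ZNF711, as were 13.4% of tested genes. Outside ZNF711, NR2F2 was at 18.9 to 26.0 CPM in replicates 1 and 2 and at 37.8 to 49.2 CPM in replicate 3, and NR2F1 at 0 to 0.564 CPM and at 2.60 to 6.88 CPM. NR2F2-AS1 was at 0.825 to 2.46 CPM in replicates 1 and 2 and at 0.745 to 1.80 CPM in replicate 3, and NR2F1-AS1 at 0.235 to 2.06 CPM and at 1.93 to 2.0 CPM, so both antisense ranges overlapped. NR2F1-AS1 was nonetheless highest in replicate 3 in VM LHX2 and VM ZNF503, and no test compared the receptors with the antisense transcripts. Marker lists of other cell types differed in the same libraries. The summed level of the 10 fibroblast and mesenchymal markers was 1799 to 2599 CPM in replicates 1 and 2 and 3497 to 5195 CPM in replicate 3, and that of the 10 hepatic and foregut endoderm markers 1765 to 4586 CPM and 9954 to 27197 CPM. The 8 epicardial markers summed to 26.4 to 36.1 CPM and to 43.2 to 80.6 CPM. The cardiomyocyte markers ran the other way, at 37919 to 42880 CPM and 15854 to 21163 CPM. The 8 pan-endothelial markers overlapped, at 326 to 460 CPM and 355 to 451 CPM. The venous and lymphatic endothelial markers were lower in replicate 3, without overlap, at 709 to 851 CPM and 648 to 690 CPM. VM ZNF711 overlapped these replicate 3 libraries in each of 4 sums, with 4180 to 4786 CPM for fibroblast, 11626 to 28293 CPM for endoderm, 69.6 to 83.8 CPM for epicardial and 12076 to 17720 CPM for cardiomyocyte markers. The highest genes weigh most in such sums. Over all 12 VM libraries TTN and MYH6 had medians of 13366 and 8165 CPM, beside 29541 CPM for the cardiomyocyte sum. AFP and APOB had 3630 and 1653 CPM, beside 7270 CPM for the endoderm sum. COL1A1 and COL3A1 had 1330 and 730 CPM, beside 3048 CPM for the fibroblast sum. The sums therefore do not show whether the lower genes of a list moved alike. In bulk RNA a change in the number of cells of a type and a change in RNA per cell cannot be told apart. The part of these cell types in the level of the 4 genes was not tested. Of the defining markers, LYVE1 and UPK3B were at or below 2.17 CPM in every library.

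**Figure D3:**
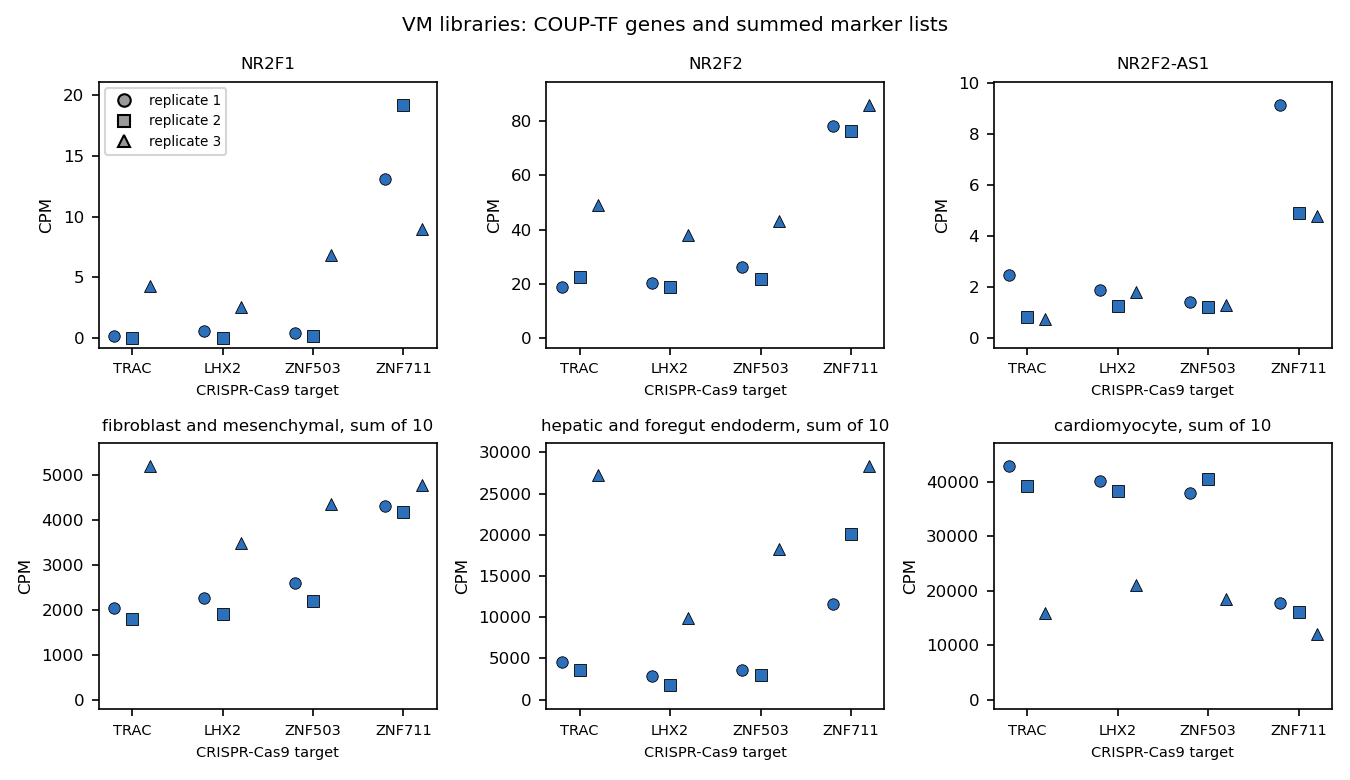
CPM on the y axis (each panel has its own range) in the 12 VM libraries by CRISPR-Cas9 target on the x axis, with 1 point per library shaped by replicate number, for NR2F1, NR2F2, NR2F2-AS1 and the summed fibroblast, endoderm and cardiomyocyte marker lists. Replicate 3 lies above replicates 1 and 2 for NR2F1 and NR2F2 in TRAC, LHX2 and ZNF503, as do the fibroblast and endoderm sums, while NR2F2-AS1 is highest in ZNF711, at 4.81 to 9.15 CPM.

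The second comparison asked whether targeting each gene altered the 4 genes against the TRAC control of the same condition, in contrasts that share their 3 control libraries. In VM, ZNF711 libraries stood out. NR2F2-AS1 rose by 2.24 on the log2 scale (SE 0.35, adjusted p = 0.0121, edgeR) and was 1 of only 3 genes called there, 0.0169% of those tested. The other genes called, named after their values were seen, were NELL2, higher by 3.47 (adjusted p = 1.81e-06, edgeR), and PAX6, a neural transcription factor gene, higher by 4.19 (adjusted p = 0.0353, edgeR). NR2F2 differed by 1.39 (SE 0.29, adjusted p = 0.0999, edgeR), NR2F1 by 2.97 (SE 0.80, adjusted p = 0.222, edgeR) and NR2F1-AS1 by 1.40 (SE 0.45, adjusted p = 0.282, edgeR). None of these 3 was called, although all 3 VM ZNF711 libraries lay above the other 9 VM libraries for each of the 4 genes, as for 1.69% of tested genes. Same-numbered VM ZNF711 and VM TRAC libraries deviated together, with correlations of 0.318 to 0.573, but what the numbers stand for is not known here. With the replicate number taken as a block NR2F2 was called as well, at 1.44 (adjusted p = 0.0066, edgeR), and NR2F2-AS1 had an adjusted p of 0.00135 (edgeR). NR2F1 (adjusted p = 0.0771, edgeR) and NR2F1-AS1 (adjusted p = 0.0712, edgeR) were not called with this block. That fit called 2.27% of tested genes. DESeq2 called NR2F2 too (adjusted p = 0.00189), whereas a fit of only the 6 libraries compared called 0 genes and gave NR2F2-AS1 an adjusted p of 0.735 (edgeR). With a separate replicate block in each condition, added after the data were seen, all 4 were called, with 8.38% of genes. With all 4 VM replicate 3 libraries left out, also added later, NR2F1, NR2F2 and NR2F2-AS1 were called, at 6.99, 1.89 and 2.04, with 4.83% of genes. VM TRAC then holds 1 and 0 counts of NR2F1, at or below the limit of 3 counts, so 6.99 is no estimate of a fold.

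The NR2F2-AS1 call, and the lack of one for NR2F2 and NR2F1, depended on single libraries. NR2F1-AS1 was not called with any 1 of the 6 libraries left out, with a lowest adjusted p of 0.0947 (edgeR). The NR2F2-AS1 call was lost without VM TRAC replicate 2 (adjusted p = 0.264, edgeR) and without VM ZNF711 replicate 1 (adjusted p = 0.162, edgeR), while without VM TRAC replicate 3 NR2F2 (adjusted p = 0.000329, edgeR) and NR2F1 (adjusted p = 0.0153, edgeR) were called. The difference between AM and VM in ZNF711 libraries was smaller than in TRAC libraries by a fitted log2 change of -2.42 for NR2F2-AS1 (SE 0.42, adjusted p = 0.0531, edgeR), which was not called, where 0.00564% of genes were. With the replicate block it was -2.43 (adjusted p = 0.00561, edgeR) and called, where 0.0282% of genes were. It was also called without VM TRAC replicate 1 (adjusted p = 0.00154, edgeR) and without VM ZNF711 replicate 3 (adjusted p = 0.0447, edgeR), as was NR2F2 without VM TRAC replicate 3 (adjusted p = 0.00685, edgeR). The same difference was -1.46 for NR2F2, -3.31 for NR2F1 and -1.73 for NR2F1-AS1, with adjusted p values of 0.459, 0.521 and 0.558 (edgeR). In AM, ZNF711 libraries differed from TRAC by -0.07 for NR2F2 (SE 0.27, adjusted p = 1, edgeR).

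In the edgeR fit without a replicate block, LHX2 and ZNF503 libraries gave no call for any of the 4 genes in either condition. Nor did ZNF711 libraries in AM. The share of all genes called in that fit was 0% in each of these 5 contrasts and in the difference between conditions for LHX2 and ZNF503. At an unadjusted p below 0.05, edgeR had 1372 genes for LHX2, 309 for ZNF503 and 618 for ZNF711 in AM, and 463 for LHX2 and 274 for ZNF503 in VM. DESeq2 called 24, 1, 0, 0 and 0 in the same order. For the differences between conditions edgeR had 660 genes for LHX2 and 346 for ZNF503 at an unadjusted p below 0.05, and DESeq2 called 0 in each. In AM LHX2 libraries NR2F2 was lower than in TRAC by a log2 value of -0.46 (SE 0.27, adjusted p = 0.709, edgeR). Its 3 libraries, at 320 to 361 CPM, lay below all 9 other AM libraries, at 373 to 514 CPM, as for 2.31% of tested genes. With a separate replicate block in each condition NR2F2 was called, at -0.46 (adjusted p = 0.0483, edgeR), where 3.11% of genes were. NR2F2 differed from TRAC by -0.20 in AM ZNF503, -0.25 in VM LHX2 and -0.02 in VM ZNF503.

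Ratios of counts within a library do not depend on scaling. NR2F2-AS1 over NR2F2 was 0.170 to 0.222 in AM LHX2 and 0.101 to 0.153 in the other 9 AM libraries, so the AM LHX2 libraries did not overlap the rest. NR2F2-AS1 was not lower in AM LHX2, at 54.6 to 76.5 CPM. NR2F2 was lowest there, below the other 9 AM libraries, as for 2.31% of tested genes. Over all AM libraries the median ratio was 0.131, against 0.0563 over the VM libraries, whose range of 0.0152 to 0.130 overlapped the AM range and rests on 4 to 37 counts of NR2F2-AS1. VM TRAC replicate 3, with 5 counts of NR2F2-AS1 beside 330 of NR2F2, had the lowest ratio. NR2F1-AS1 over NR2F1 was narrow in AM, at 0.103 to 0.163, and 0.245 to 0.377 in VM ZNF711, while the other VM libraries held too few counts for a ratio. NR2F1 over NR2F2 was 0.281 to 0.541 in AM, 0.105 to 0.251 in VM ZNF711 and 0 to 0.160 in the other VM libraries. No test was made of these ratios, and no share of other gene pairs is given beside them.

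**Figure D4:**
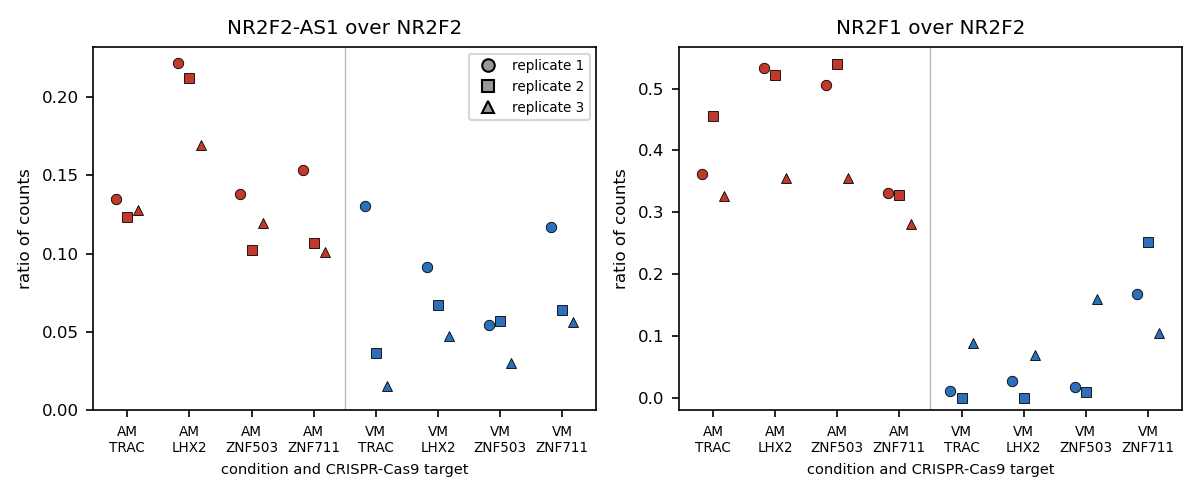
Ratio of counts within each library on the y axis for the 8 groups on the x axis, with 1 point per library shaped by replicate number, AM in red and VM in blue; left, NR2F2-AS1 over NR2F2; right, NR2F1 over NR2F2. The AM LHX2 points, at 0.170 to 0.222, are the highest in the left panel, and the VM points outside ZNF711 reach at most 0.160 in the right panel.

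Genes that work with the COUP-TF receptors differed far less. Of 10 other NR2 family members and RXR or HNF4 genes, 8 were tested in the mean over targets and 3 were called: RXRG, a heterodimer partner, fell by 1.46 on the log2 scale in AM, HNF4G was higher by 1.14 and RXRB by 0.29. The closest paralogue, NR2F6, was at 62.3 to 115 CPM in AM and 64.1 to 122 CPM in VM and was not called. NR2E1 and NR2E3 did not pass the filter. Of 9 cofactor genes 5 were called, all higher in AM, by 0.26 to 1.04, with ZFPM1, a zinc finger cofactor gene, at the top and NCOA1 at 0.57. The median of the cofactor list was 0.27 and that of the family list -0.09, beside -0.01 for all tested genes. ZFPM2 was not called. The share of all genes called was 16.8% higher and 17.6% lower in AM in this comparison.

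Genes of retinoic acid signalling moved in both directions. Of 22 tested, 12 were called higher and 4 lower in AM, with a median of 0.42. The patterning gene HOXA3 was at 9.31 to 19.3 CPM in AM and at most 1.07 CPM in VM. Lower in AM were the retinoic acid breakdown genes CYP26C1 and CYP26A1, with CYP26C1 at 0 to 3.90 CPM in AM and 9.70 to 73.0 CPM in VM, and CYP26A1 at most 0.468 CPM in AM and 0.410 to 3.73 CPM in VM. The other lower calls were the synthesis genes ALDH1A3 (-1.52) and ALDH1A2 (-0.57), of which ALDH1A2 was not called with library size alone. Of 16 atrial genes, 11 were called higher and 3 lower, with a median of 1.27, and the 4 with the largest differences were KCNJ3 (4.42), a potassium channel gene of atrial muscle, SLN (2.76), KCNA5 (2.17) and TBX18 (1.88). The 3 called lower were MYL7 (-0.93), KCNJ5 (-0.77) and MYL4 (-0.37), and with library size alone MYL4 was not called. Of 13 ventricular genes, 12 were called lower and 1, KCNJ2 (2.04), higher, with a median of -1.19. IRX4, a ventricular transcription factor gene, fell by 5.98 on the log2 scale, MYH7 by 3.74 and HEY2, a repressor of atrial genes, by 3.57, while MYL2 was at most 0.181 CPM in AM and 0.615 to 9.21 CPM in VM. With library size alone HAND1 left the lower calls.

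Other lists bear on the cell types that express NR2F2. Of 8 venous and lymphatic endothelial genes tested, 6 were called higher in AM and 1 lower, among them APLNR (1.91) and FLT4 (1.63), and STAB2 was at 0.951 to 87.4 CPM in AM and at most 0.742 CPM in VM. The remaining gene among the 4 largest, PDPN, was the 1 called lower, by -1.23. Under relative log expression scaling EPHB4 left the higher calls. Their summed level was 847 to 1557 CPM in AM and 648 to 851 CPM in VM. Of 8 pan-endothelial genes 5 were called, all higher, and of 10 fibroblast and mesenchymal genes 4, all higher: TCF21 (3.31), PDGFRA (2.39), DCN (1.77) and COL3A1 (1.67). The fibroblast list summed to 4320 to 7545 CPM in AM and 1799 to 5195 CPM in VM, ranges that overlap, and the epicardial list, with 3 called higher and 1 lower of 7, to 72.9 to 167 CPM and 26.4 to 83.8 CPM. The endoderm list summed to 306 to 2209 CPM in AM and 1765 to 28293 CPM in VM, ranges that overlap. Of its 10 genes 5 were called lower in AM: AFP, ALB, APOA1, APOB and SERPINA1. The other 2 calls, FOXA1 (2.26) and SOX17 (1.58), were higher. Of all tested genes 16.8% were called higher and 17.6% lower in AM in the mean over targets. Neural and neural crest genes gave 3 calls in each direction among 9 tested. Of the 10 cardiomyocyte genes 4 were called over the mean of the targets, all lower in AM. The list's median log2 difference was -0.71 in TRAC, -0.52 in LHX2 and -0.94 in ZNF503, with none called higher, and 0.73 in ZNF711, where ACTC1, MYH6 and RYR2, named after their values were seen, were called higher and none lower. In the test of that difference between ZNF711 and TRAC 0 of the 10 were called (edgeR). In VM ZNF711 against TRAC, PAX6 was the 1 gene called among the 9 neural and neural crest genes tested, whose median was 1.93 beside -0.01 for all tested genes. TFAP2B (2.72), FOXD3 (2.41), SOX10 (2.16), SOX2 (1.93), PAX3 (1.89) and NES (-0.16) were not called. The list summed to 558 to 644 CPM in VM ZNF711, within the 445 to 720 CPM of the other 9 VM libraries. NES alone was at 436 to 708 CPM in VM, so this sum cannot show changes of the list's genes at far lower levels. The part of these lists in the level of NR2F2 and NR2F1 was not tested.

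The nearest protein-coding genes, up to 3297.9 kb from the receptors, differed far less between the conditions. Of 12 such genes, 3 on each side of NR2F1 and of NR2F2, 10 were tested and their log2 differences between AM and VM lay between -0.53 and 0.60. Around NR2F1, FAM172A, 23.5 kb away, was called higher in AM at 0.54 and ADGRV1, 2418.8 kb away, at 0.42, while LYSMD3, 3053.6 kb away, was called lower at -0.53. Around NR2F2 only CHD2, 3297.9 kb away, was called, at -0.29. In all, 2 of the 10 were called higher and 2 lower, where 16.8% and 17.6% of all tested genes were. None of the 10 was called in VM ZNF711 against TRAC.

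Over the 24 libraries the gene whose centred log2 CPM profile was most like that of NR2F2 was NR2F1-AS1, with a root mean square difference of 0.49, followed by TRABD2B (0.51), PIEZO2 (0.55), NELL2 (0.56) and GPR37 (0.57). The order depended on the prior count: with a prior count of 0.5, TRABD2B came first (0.51), and NR2F1-AS1 and NELL2 were not among the nearest 5. NELL2 was also called in VM ZNF711, whereas GPR37 was at a median of 21.3 CPM there and 20.6 CPM over all VM libraries. For NR2F1 the nearest were MYH11 (1.05), SHOX2 (1.16), KCNJ3 (1.23), C7 (1.27) and ZNF385B (1.30), each at a median of 31.4 to 234 CPM in AM and 0.309 to 7.14 CPM in VM. These likenesses rest largely on the contrast between AM and VM: within the 12 AM libraries alone 0 of the 5 names was kept for either receptor.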

How the data were processed

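The values are the authors' deposited counts per gene, whole numbers for 24 libraries, per the file headers and values. STAR and GRCh38 are named in the submitters' processing notes. The counting program, strandedness and annotation release are not given in the sources used here. The labels give both polyA RNA and RiboErase depletion, so the RNA selection is unclear. All columns matched 1 library by title, and 0 rows named no gene.

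Genes passing filterByExpr were tested with edgeR 4.0.16 (R 4.3.3) quasi-likelihood fits, robust, with trimmed mean scaling and 1 mean per group over all 24 libraries. Benjamini-Hochberg adjustment ran over 17724 genes within each of 14 comparisons. On simulated counts for AM minus VM in TRAC (17142 genes), 55 of 100 genes changed by 1 on the log2 scale and 90 of 100 changed by 2 were called. Among the unchanged genes 7 were called. The changed genes were drawn only above a minimum mean count, and the simulated libraries held no deviation shared by replicate number. These shares therefore do not cover counts as low as those of NR2F1 in VM. Libraries of a group differed beyond sampling noise (chi-square per degree of freedom 4.57 to 50.7). Same-numbered libraries deviated together, with correlations of 0.125 to 0.786 in 30 checks over 11428 genes. The fit above held no replicate term, so calls given without a block do not use this pairing. The numbers were taken as pairs only in the fits with a replicate block, which are among the alternatives.

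The 4 genes and the 12 lists were chosen with earlier results of these data known. From the lists the text names the 4 largest called differences (some list genes are not reported here), and for each receptor the 5 genes of smallest root mean square difference in log2 CPM (prior count 2). Alternatives were other scalings and filters, DESeq2 1.42.0, the replicate block, only the groups compared, and each library left out.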

Additional observations from a re-analysis of the deposited data

How the results depend on the processing

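All 20 results for the 4 genes between AM and VM kept their direction and their call in all 348 alternative values, with a highest adjusted p of 0.0154 (edgeR or DESeq2). Each alternative fit gave several of these values. For ZNF711 against TRAC in VM the calls moved. Without the filter the values were 2.95 for NR2F1 and 1.37 for NR2F2, both now called. The replicate block gave NR2F2 1.44 and DESeq2 gave it 1.38, both called. Only the groups compared left NR2F2-AS1 at 2.21, not called. Of the alternatives added after the data were seen, the separate replicate block in each condition gave NR2F1 3.12, NR2F2 1.49 and NR2F1-AS1 1.45, and leaving out all VM replicate 3 libraries gave NR2F1 6.99 and NR2F2 1.89, all called. With each library dropped in turn the range was 2.45 to 6.74 for NR2F1 (the highest without VM TRAC replicate 3), 1.14 to 1.93 for NR2F2 and 1.86 to 2.95 for NR2F2-AS1. For the difference between conditions in ZNF711 against TRAC, no filter gave NR2F1 -3.32, NR2F2 -1.46 and NR2F2-AS1 -2.43, called. The 1 CPM filter gave NR2F2-AS1 -2.42, and the replicate block and DESeq2 -2.43 each, called. The separate block gave NR2F2 -1.55, NR2F1-AS1 -1.77 and NR2F2-AS1 -2.44, and leaving out VM replicate 3 gave NR2F1 -7.33, NR2F2 -1.95 and NR2F2-AS1 -2.22, called. In every fit without VM TRAC replicate 3 that group holds 1 and 0 counts of NR2F1, so its 6.74, 6.99 and -7.33 are no estimates of a fold. Single libraries moved NR2F2 from -2.0 to -1.21 and NR2F2-AS1 from -3.13 to -2.05. NR2F2 in AM LHX2 was called only with the separate block, at -0.46. NR2F2 changed sign around 0, never called: in VM ZNF503 it was 0.0102 with library size alone, 0.0015 with the replicate block, 0.0137 with the separate block and 0.20 without VM replicate 3, and single libraries gave -0.35 to 0.54, with -0.63 to 0.30 in VM LHX2 and -0.143 to 0.0223 in AM ZNF711. The replicate block changed no other call of the 4 genes. The cause of these changes was not tested.

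The number of genes called moved over 1.5 times. Beside 2003, 1517, 1571 and 2345 genes for AM against VM in TRAC, LHX2, ZNF503 and ZNF711, the replicate block called 3430, 2781, 2642 and 4150. In TRAC only the groups compared called 995. Dropping 1 library called 1147 in TRAC (AM TRAC replicate 2), 902 or 1011 in LHX2 (AM LHX2 replicate 2 or 1), 1031 in ZNF503 (AM ZNF503 replicate 1) and 1331, 1356 or 1525 in ZNF711 (VM ZNF711 replicate 3, AM ZNF711 replicate 2 or VM ZNF711 replicate 2). For ZNF711 in VM, 3 genes became 0 with only the groups compared, 402 with the replicate block, 1485 with the separate block and 1 to 637 with single libraries left out. For LHX2 in AM 0 became 552 with the separate block, and without the filter 99 were called for ZNF711 in AM, 16 for ZNF503 in AM, 136 for LHX2 in VM and 4 for ZNF503 in VM. For the differences between conditions the highest counts were 40 for LHX2, 3 for ZNF503 and 450 for ZNF711. Of the 5 names nearest each receptor, all 5 stayed under relative log expression scaling, and 4 (NR2F1) and 3 (NR2F2) with a prior count of 0.5. With library size alone COL1A2 and KDR joined the list genes called higher in AM. At these depths NR2F1 is at or below the limit of 3 counts in 6 of the 12 VM libraries.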
